A study of Homo sapiens with 24 samples.

Results

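The interaction of ACLY knockdown with 5 mM butyrate was measured in HCT116 cells, a human colorectal carcinoma line. It asks, gene by gene, whether 5 mM butyrate changed a transcript more or less in cells transfected with siACL than in cells transfected with siMock. The groups were siACL cells with 5 mM butyrate for 3 days, untreated siACL cells, siMock cells with 5 mM butyrate for 3 days and untreated siMock cells. All were grown in DMEM with glucose, and each group held 3 arrays that the labels call biological replicates. The contrast therefore used 12 of the 24 Illumina expression arrays of the series. The other 12 arrays, at 0.5 and 2 mM butyrate, entered the same fit and shared its estimate of the spread. Of 20747 entries on the arrays, the 18172 with a gene symbol were members of the comparison. The interaction of a gene is its change in siACL cells (5 mM minus untreated) minus its change in siMock cells. A positive value means that the change lay higher in siACL cells. That can be a smaller fall, a larger rise, or a rise in place of a fall. The siACL cells are a depletion by transfection and not a deletion, and the sources used here do not give the transfected sequences.

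Gut bacteria ferment fibre to butyrate, a short-chain fatty acid. Colonocytes burn it in their mitochondria, and where it is not burnt it inhibits histone deacetylases, the enzymes that take acetyl groups off histones. ATP citrate lyase, encoded by ACLY, splits citrate exported from mitochondria into oxaloacetate and cytosolic acetyl-CoA, the acetyl donor of histone acetyltransferases and the carbon source of fatty acid and cholesterol synthesis. In colon cancer lines butyrate is known to slow the cell cycle and to change the transcription of many genes.

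The values are normal scores: on each array the genes were ranked and the ranks placed on a standard normal curve, so that 0 is the middle of the array. They range from -3.90 to 3.90. A difference of scores is a move in rank and cannot be turned into a fold change, and a shift common to all transcripts stays hidden. Genes near the bottom of the arrays were less precise. The median residual SD was 0.416 in the class of genes with the lowest mean scores and 0.0333 in the highest class. Signal over background is unknown. On the second principal component the 3 untreated siMock arrays stood apart, at 16.6 to 22, from the untreated siACL arrays at 2.85 to 4.3. The count of called interactions at 5 mM, the named genes and the main gene lists were therefore also computed with the 0.5 mM arrays in place of the untreated ones, an alternative chosen after seeing the data. Markers of the line (9 measured, among them EPCAM, CDH1, KRT8 and KRT18) had a median score of 0.85 to 1.11 in the 4 groups. The 6 measured fibroblast markers lay between -1.18 and -0.73 and the 6 measured leukocyte markers between -1.23 and -0.57, and no member of either list was called for the interaction.

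ACLY itself, the targeted gene, had scores of 0.68, 0.70 and 0.67 in siACL cells at 5 mM and 1.17, 1.21 and 1.17 in untreated siACL cells. In siMock cells it had 1.34, 1.30 and 1.28 at 5 mM and 1.50, 1.53 and 1.53 without butyrate. No siACL array overlapped a siMock array at either dose. ACLY was thus lower in siACL than in siMock cells before butyrate, by -0.34 (limma adjusted p = 6.3e-08), and further lower at 5 mM, by -0.63 (adjusted p = 1.4e-11). Its interaction was -0.29 ± 0.031 (SE, limma, adjusted p = 1.3e-05), so the gap in ACLY between the arms widened at the dose compared here.

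Butyrate moved about the same number of genes in each arm: 8222 genes (45.2%) changed in siACL cells at 5 mM and 9237 (50.8%) in siMock cells. The interaction was called for 1608 of 18172 genes, which is 8.85% (limma moderated test, Benjamini-Hochberg adjusted p under 0.05). It was positive for 999 genes (5.5%) and negative for 609 genes (3.35%). The median size of a called interaction was 0.212, with a range of 0.0816 to 3.93, and the median over all genes was 0.00112. In 1229 of the 1608 genes (76.4%) the change with butyrate was smaller in siACL cells, and in 379 it was larger. Both arms changed in the same direction and siACL cells by less in 797 genes, which was 49.6% of those called. A further 400 genes changed in siMock cells alone, 177 in siACL cells alone, 167 in both with the larger change in siACL cells, 63 in both with opposite signs, and 4 in neither.

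**Figure D1:**
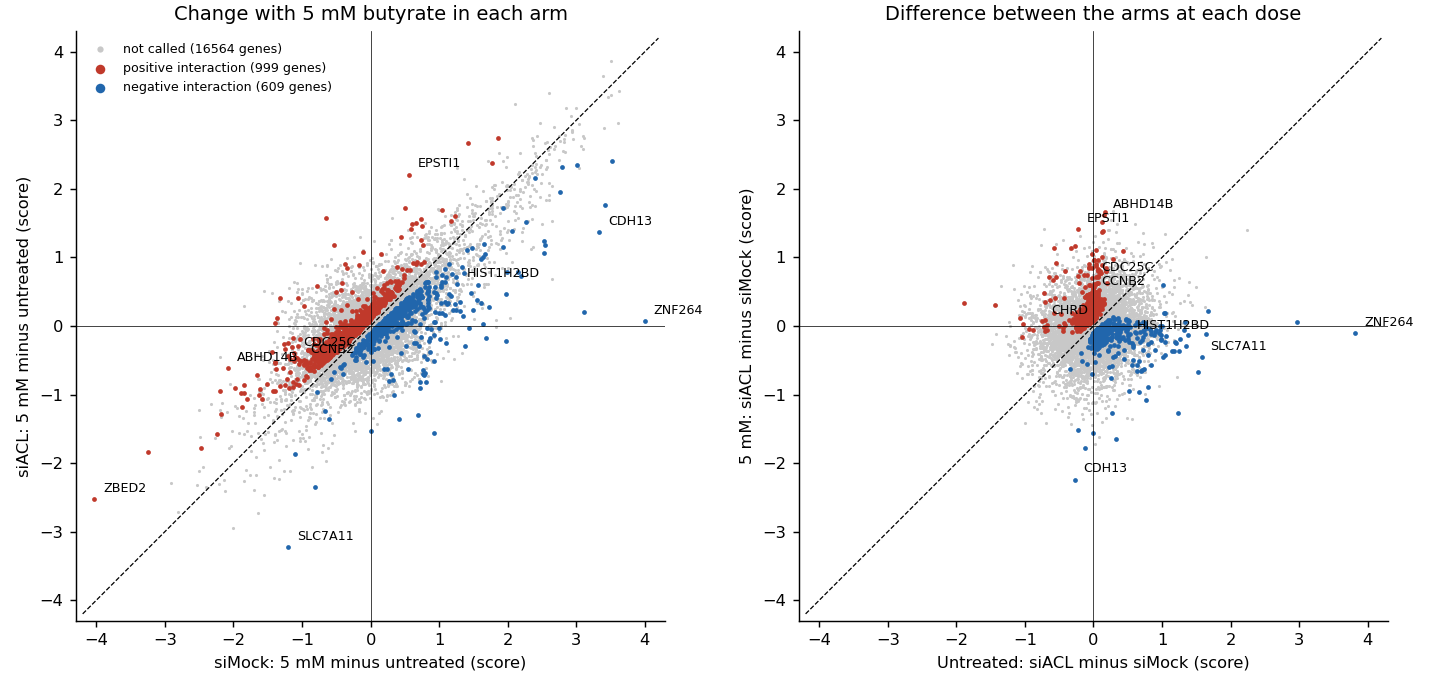
Each point is 1 of 18172 genes. The left panel plots the change with 5 mM butyrate in siACL cells (vertical axis) against that in siMock cells (horizontal axis), and the right panel plots siACL minus siMock at 5 mM (vertical) against the same difference without butyrate (horizontal), all in score units. Red points are the 999 genes with a positive interaction, blue points the 609 with a negative one, grey points the 16564 not called, and the dashed line marks equal values. In the left panel most coloured points lie closer to 0 on the siACL axis than on the siMock axis, as for 1229 of the 1608.

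The positive and negative sets differed in where the arms parted. Among the 999 positive genes the median change was -0.106 in siACL cells and -0.319 in siMock cells. Of these genes, 682 differed between siACL and siMock at 5 mM alone, 161 without butyrate alone, 68 at both and 88 at neither. The largest class of the positive set was thus called between the arms at 5 mM and not without butyrate. Among the 609 negative genes the median change was 0.0618 in siACL cells and 0.32 in siMock cells. Here 239 differed between the arms without butyrate alone, 214 at 5 mM alone, 60 at both and 96 at neither. Without butyrate 1147 genes (6.31%) differed between siACL and siMock cells, and at 5 mM 2493 genes (13.7%) did. When the 0.5 mM arrays replaced the untreated ones, 1779 genes were called, 1088 positive and 691 negative. Of the 110 genes picked by the naming rule, 75 kept their call with that baseline, 30 lost it and 5 changed sign.

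Genes of mitosis had the largest share of called members among the gene lists. All 34 measured members fell at 5 mM in both arms (over all genes 22.6% fell in siACL and 25.2% in siMock cells). For 32 of them the fall was smaller in siACL cells by the test, with none the other way. The 2 members not called, CDC25B and PLK1, also had positive values. The list's median interaction was 0.36, against 0.00112 over all genes. In siACL cells at 5 mM the median score of the list was 0.83, 0.83 and 0.80 on the 3 arrays, after 1.20, 1.15 and 1.17 without butyrate. In siMock cells it was 0.47, 0.43 and 0.48 at 5 mM, after 1.21, 1.21 and 1.18 without butyrate. The arms overlapped without butyrate and did not at 5 mM: 34 of 34 members were higher in siACL than in siMock cells at 5 mM, where 8.8% of all genes were higher and 4.91% lower, while without butyrate 1 member was lower. In bulk samples fewer cycling cells and less RNA per cell cannot be told apart.

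The promoters of 3 of these genes are shown because members moved together, and those of a pair of histone genes because their group moved the other way. Promoters of genes expressed late in the cell cycle are known for the CCAAT box, bound by NF-Y, and for the CHR element TTTGAA, bound by the DREAM complex. Both motifs were searched on both strands, capitals mark the matches (ATTGG and TTCAAA being the reverse strand), and no matches of the 2 motifs overlap here. The sequences are RefSeq's for GRCh38.p14, the 250 bases before the annotated start, written 5′ to 3′ on the gene's strand. They lie at chr15:59104896-59105145 (plus strand) for CCNB2, chrX:70289854-70290103 (plus) for KIF4A, chr5:138338356-138338605 (minus) for CDC25C, chr6:26157871-26158120 (plus) for H2BC5, which the array calls HIST1H2BD, and chr1:149842751-149843000 (minus) for H2AC18, which the array calls HIST2H2AA3.
CCNB2: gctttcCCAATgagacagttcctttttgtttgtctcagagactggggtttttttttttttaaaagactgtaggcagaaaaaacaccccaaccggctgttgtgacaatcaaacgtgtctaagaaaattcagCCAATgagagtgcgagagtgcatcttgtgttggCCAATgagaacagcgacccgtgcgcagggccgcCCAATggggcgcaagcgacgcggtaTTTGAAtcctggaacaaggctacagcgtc
KIF4A: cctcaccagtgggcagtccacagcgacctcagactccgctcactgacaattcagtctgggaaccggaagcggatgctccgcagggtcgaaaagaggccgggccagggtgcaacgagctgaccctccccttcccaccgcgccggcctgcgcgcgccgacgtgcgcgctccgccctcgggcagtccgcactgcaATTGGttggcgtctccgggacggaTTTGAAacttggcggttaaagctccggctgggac
CDC25C: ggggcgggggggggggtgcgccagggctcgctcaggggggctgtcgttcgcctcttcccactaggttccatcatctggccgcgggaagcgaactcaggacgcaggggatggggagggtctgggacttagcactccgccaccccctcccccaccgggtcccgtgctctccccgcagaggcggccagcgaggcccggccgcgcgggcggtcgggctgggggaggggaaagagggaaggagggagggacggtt
H2BC5: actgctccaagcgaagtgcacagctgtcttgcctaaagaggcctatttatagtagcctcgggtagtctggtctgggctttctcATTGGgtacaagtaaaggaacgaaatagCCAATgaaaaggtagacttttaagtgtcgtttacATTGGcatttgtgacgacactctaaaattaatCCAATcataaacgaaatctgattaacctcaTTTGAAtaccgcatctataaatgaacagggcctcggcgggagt
H2AC18: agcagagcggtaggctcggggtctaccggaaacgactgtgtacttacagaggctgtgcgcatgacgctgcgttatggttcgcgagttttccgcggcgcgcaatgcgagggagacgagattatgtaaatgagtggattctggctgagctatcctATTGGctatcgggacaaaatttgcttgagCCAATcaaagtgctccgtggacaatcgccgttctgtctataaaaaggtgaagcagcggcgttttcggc
CCNB2 held 4 CCAAT boxes and 1 TTTGAA, KIF4A 1 of each, and CDC25C held 0 of either in this window. Only 1 annotated start was used for each gene shown, so the 0 for CDC25C does not show that it lacks these motifs at another start. H2BC5 held 4 CCAAT boxes and 1 TTTGAA, and H2AC18 2 CCAAT boxes. Over the 300 bases of the RefSeq table, 50 of them after the start, TTTGAA was present in 19 of 29 mitosis promoters (65.5%), against 10.5% of the 10347 tested genes with a promoter entry and 15.4% of all 27305 entries. In genes with a positive interaction the share was 17.9%, and in those with a negative one 8.82%. The share did not follow the direction of the lists: it was 1 of 33 DNA replication promoters (3.03%) and 6 of 22 histone promoters (27.3%). CCAAT was present in 72.4% of mitosis promoters, 54.5% of DNA replication promoters, 81.8% of histone promoters and 36.9% of tested genes. It was in 37.5% of genes with a positive interaction and 43.2% of those with a negative one. A match describes these letters and does not show that a factor binds.

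CCNB2, the cyclin that activates CDK1 at mitotic entry, had scores of 0.98, 1.03 and 1.00 in siACL cells at 5 mM and 1.55, 1.51 and 1.46 in untreated siACL cells. Its scores in siMock cells were 0.49, 0.45 and 0.57 at 5 mM and 1.55, 1.52 and 1.51 without butyrate. The arms overlapped without butyrate and did not at 5 mM, where siMock cells were the lower. The interaction was 0.51 ± 0.041 (limma adjusted p = 5.5e-07). CDC25C, the phosphatase that removes inhibitory phosphates from CDK1, had the largest interaction of the list, 0.72 ± 0.074 (adjusted p = 8.5e-06). It stood at 0.14, 0.12 and 0.11 in siACL cells at 5 mM and 0.52, 0.50 and 0.53 in untreated siACL cells, against -0.40, -0.73 and -0.58 in siMock cells at 5 mM and 0.57, 0.52 and 0.53 in untreated siMock cells. KIF4A, a chromosome-bound kinesin, followed the same order with an interaction of 0.56 ± 0.087 (adjusted p = 0.00048). UBE2C, the ubiquitin-conjugating enzyme of the anaphase-promoting complex, fell by 0.33 in siACL cells and fell by 0.74 in siMock cells. RACGAP1, part of the spindle midzone complex of cytokinesis, fell by 0.26 in siACL cells and fell by 0.64 in siMock cells, and PBK, a mitotic kinase, fell by 0.38 in siACL cells and fell by 0.86 in siMock cells. None of these 3 was called between the arms without butyrate, with adjusted p-values (limma) from 0.141 to 0.933. RACGAP1 and PBK are not on the mitosis list and were named for their large moderated t. Among the other members of the list the interaction was 0.34 for CCNB1, 0.35 for AURKA, 0.41 for TOP2A, 0.50 for KIF20A and 0.51 for BIRC5.

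DNA replication genes moved in the same direction by less. The interaction was positive for 18 of 38 measured members (47.4%, against 5.5% of all genes) and negative for none. The list median was 0.17, and 37 of 38 values were above 0. In siACL cells 20 members fell at 5 mM and 6 rose, and in siMock cells 31 fell and 3 rose. Over all genes 22.6% fell and 22.7% rose in siACL cells, and 25.2% fell and 25.6% rose in siMock cells. Unlike those of the mitosis list, the list medians of the arms did not overlap without butyrate. Few members were called there: 2 were lower in siACL than in siMock cells and 0 higher (over all genes 2.61% and 3.7%). The median score of the list without butyrate was 1.04, 1.06 and 1.04 in siACL and 1.13, 1.15 and 1.16 in siMock cells. At 5 mM it was 0.85, 0.91 and 0.87 in siACL and 0.72, 0.66 and 0.68 in siMock cells. CDT1, the licensing factor that loads the MCM helicase, had an interaction of 0.35 ± 0.051 (limma adjusted p = 0.00026), and E2F2, a transcription factor of S-phase genes, 0.32 ± 0.036 (adjusted p = 2.3e-05). CDT1 was at 0.17 and E2F2 at 0.10 (adjusted p = 0.0976) against the 0.5 mM arrays, so the call for E2F2 was lost. RRM2, the regulated subunit of ribonucleotide reductase, was the replication gene called in both arms with opposite signs. It had 1.01, 1.04 and 1.03 in siACL cells at 5 mM and 0.75, 0.85 and 0.81 in untreated siACL cells. In siMock cells it had 0.62, 0.57 and 0.60 at 5 mM and 0.82, 0.87 and 0.91 without butyrate. RRM2 thus rose by 0.22 in siACL cells and fell by 0.27 in siMock cells, with an interaction of 0.49 ± 0.067 (adjusted p = 0.00013), and 0.28 against the 0.5 mM arrays. FEN1, PRIM1 and TK1 also had a called interaction with arms of opposite sign, but each was called in 1 arm alone. A second entry for RRM2, named C2ORF48 on the array, gave 0.25 ± 0.37 (adjusted p = 0.776). With the 0.5 mM arrays as the baseline, 10 replication members were positive and 1 negative, and the list median fell to 0.054. On that baseline 33 mitosis members were positive, with a median of 0.425 in place of 0.364. At 0.5 mM the mitosis list itself stood lower in siACL (mean 1.10) than in siMock cells (1.24), a gap that adds to that value.

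**Figure D2:**
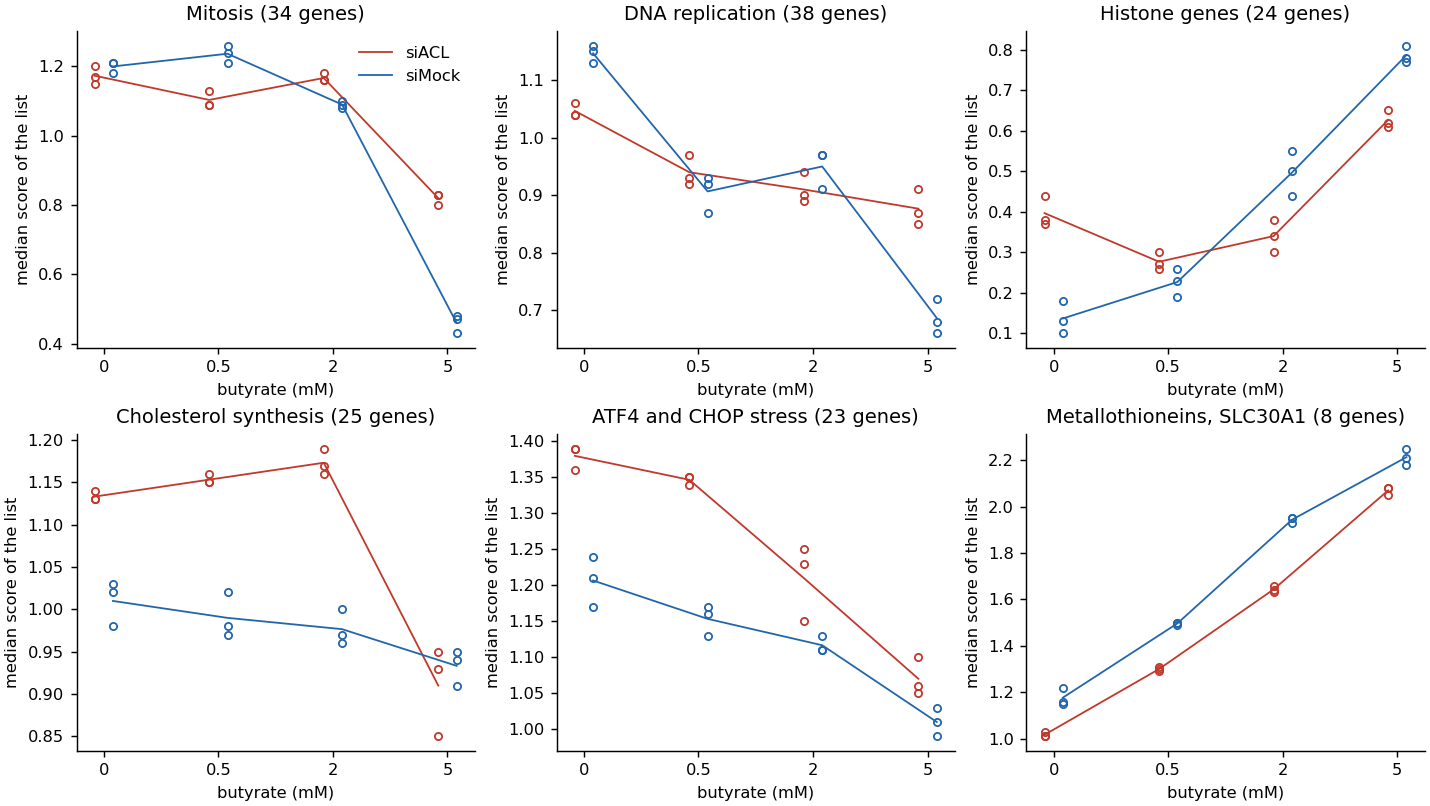
Median score of 6 gene lists (vertical axes, score units) on every array, by butyrate dose in mM (horizontal axes). Open circles are single arrays, lines join the means of 3 arrays, red is siACL and blue is siMock, and the vertical axes do not start at 0. The mitosis arms are furthest apart at 5 mM, with means of 0.82 in siACL and 0.46 in siMock cells. On that list siACL is the lower arm at 0.5 mM (1.10 against 1.24) and the higher at 2 mM (1.17 against 1.09). The cholesterol and ATF4 lists are already apart without butyrate (1.14 in siACL and 1.01 in siMock cells, and 1.38 in siACL and 1.21 in siMock cells). The histone list (0.40 in siACL and 0.14 in siMock cells) and the DNA replication list (1.05 in siACL and 1.15 in siMock cells) are apart there too.

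Histone genes mostly went the opposite way. Of 24 measured members 8 had a negative interaction (33.3%, against 3.35% of all genes) and 2 a positive one (8.33%, against 5.5%). The list median was -0.30. With the 0.5 mM arrays as the baseline 6 were negative and 2 positive (median -0.21), and among genes with a mean score above 0, 7 were negative and 3 positive (median -0.06). In siACL cells 11 members rose at 5 mM and 2 fell, and in siMock cells 14 rose and 4 fell (over all genes 22.7% rose in siACL and 25.6% in siMock cells). Without butyrate 7 members were already higher in siACL than in siMock cells and 1 was lower (over all genes 3.7% and 2.61%). The median score of the list was 0.65, 0.62 and 0.61 on the siACL arrays at 5 mM and 0.37, 0.38 and 0.44 on the untreated siACL arrays, against 0.78, 0.77 and 0.81 on the siMock arrays at 5 mM and 0.13, 0.10 and 0.18 on the untreated siMock arrays. Arrays of the arms did not overlap at either dose. Histone genes are copies of near-identical sequence, so that a probe may read several of them, and the order among copies is uncertain.

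HIST1H2BD (H2BC5), which encodes an H2B, had the largest moderated t of the whole comparison on the negative side. It stood at 1.34, 1.35 and 1.33 in siACL cells at 5 mM and 0.76, 0.69 and 0.74 in untreated siACL cells, against 1.47, 1.51 and 1.48 in siMock cells at 5 mM and 0.21, 0.22 and 0.23 in untreated siMock cells. It rose in both arms, by 0.61 in siACL and 1.26 in siMock cells, and the interaction was -0.65 ± 0.029 (limma adjusted p = 6.3e-10). HIST2H2AA3 (H2AC18), an H2A gene, rose by 0.16 in siACL cells and rose by 1.09 in siMock cells, with an interaction of -0.93 ± 0.06 (adjusted p = 6.1e-08). HIST2H2AC (H2AC20) rose by 0.64 in siMock cells, and its change of 0.07 in siACL cells was not called (adjusted p = 0.0531). Its interaction was -0.57 ± 0.039 (adjusted p = 7.4e-08). The largest values of the list were -1.62 ± 0.22 for HIST1H3H and -1.45 ± 0.2 for HIST1H2AC, both of which had negative scores in untreated siMock cells, where single arrays spread from -2.25 to -1.65 for HIST1H3H and from -1.51 to -0.65 for HIST1H2AC. HIST1H2BD was at -0.32, HIST2H2AA3 at -0.59 and HIST1H2AC at -0.76 against the 0.5 mM arrays, each with its call kept. The exceptions were HIST1H4C, at 0.23, and H2AFX, the variant phosphorylated at DNA breaks, at 0.26, both of which fell in siMock cells at 5 mM.

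A pair of small nuclear and nucleolar RNAs also rose by less in siACL cells. RN7SK, the RNA that holds the elongation factor P-TEFb inactive, had 0.67, 0.61 and 0.70 in siACL cells at 5 mM and 0.41, 0.38 and 0.37 in untreated siACL cells. In siMock cells it had 1.09, 1.09 and 1.05 at 5 mM and 0.29, 0.31 and 0.32 without butyrate. The interaction was -0.50 ± 0.033 (limma adjusted p = 7.2e-08). SNORD3C, a copy of the U3 RNA that guides cleavage of the ribosomal RNA precursor, rose by 0.43 in siACL cells and rose by 1.18 in siMock cells, with an interaction of -0.74 ± 0.055 (adjusted p = 2.9e-07), and -0.32 against the 0.5 mM arrays. The copies of U3 are also near-identical.

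Genes of cholesterol synthesis, like the histone genes, had arms that were apart before treatment, but more of them fell than rose at 5 mM. Of 25 measured members, 10 were higher in siACL than in siMock cells without butyrate and 1 was lower (the shares over all genes were 3.7% and 2.61%). At 5 mM 19 members fell in siACL cells and 10 in siMock cells (over all genes 22.6% and 25.2%). The interaction was negative for 9 and positive for 1 (36% and 4%, against 3.35% and 5.5% of all genes). The list median of the interaction was -0.14. HMGCS1, which makes HMG-CoA at the start of the pathway, had 1.29, 1.33 and 1.26 in siACL cells at 5 mM and 1.48, 1.53 and 1.51 in untreated siACL cells, against 1.27, 1.28 and 1.25 in siMock cells at 5 mM and 1.15, 1.13 and 1.16 in untreated siMock cells. At 5 mM the arms overlapped, and without butyrate siACL cells were higher on every array. HMGCS1 fell by 0.21 in siACL cells and rose by 0.12 in siMock cells, and its interaction was -0.33 ± 0.042 (limma adjusted p = 5.6e-05). IDI1, the isomerase that makes dimethylallyl diphosphate, had an interaction of -0.30 ± 0.054 (adjusted p = 0.00161), and INSIG1, which holds the SREBP escort in the endoplasmic reticulum, had -0.20. With the 0.5 mM arrays as the baseline 15 members were negative and 2 positive.

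Other genes around acetyl-CoA were called in both directions. Of 18 measured genes of acetyl-CoA and citrate supply, 3 were positive and 3 negative, together 33.3% against 8.85% of all genes. SLC25A1, the carrier that exports citrate from mitochondria, had 0.15 ± 0.039 (limma adjusted p = 0.0227), a call lost when any of 6 of the 12 arrays was left out. ACSS2, which makes cytosolic acetyl-CoA from acetate, had -0.14 ± 0.029 (adjusted p = 0.00497): it fell by 0.35 in siACL cells and fell by 0.21 in siMock cells, and without butyrate it was 0.18 higher in siACL than in siMock cells. ME1, malic enzyme, had -0.16 ± 0.034 (adjusted p = 0.00484). ACSS2 was at -0.29 and ME1 at -0.34 against the 0.5 mM arrays. Of 19 genes of fatty acid and triglyceride synthesis 21.1% were called: 1 was positive (PLIN2, the lipid droplet coat protein, 0.28 ± 0.046) and 3 were negative, among them ELOVL1 at -0.32 ± 0.069 and ACSL5 at -0.17 ± 0.031. Against the 0.5 mM arrays the calls were lost for PLIN2 (0.12, adjusted p = 0.119) and ELOVL1 (-0.21, adjusted p = 0.0688), and ACSL5 was at -0.45. Of 20 genes of butyrate uptake and beta-oxidation 2 were called, both positive, a share of 10% that lay near the 8.85% of all genes. They were HADH at 0.18 ± 0.036 and CPT1A at 0.20 ± 0.058. The call for CPT1A (limma adjusted p = 0.043) was lost on leaving out any of 7 arrays. CPT1A kept its call against the 0.5 mM arrays (0.23, adjusted p = 0.0157) and HADH lost it (0.09, adjusted p = 0.112). No member of the 16 histone deacetylases or of the 16 histone acetyltransferases was called, with list medians of -0.056 and -0.036. Over all genes 8.85% were called, so lists of this size would hold few calls at that share.

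Targets of ATF4 and CHOP, the transcription factors of the amino acid and unfolded protein responses, also differed between the arms before treatment. Of 23 measured members 9 had a negative interaction (39.1%, against 3.35% of all genes) and none a positive one, with a median of -0.10. Without butyrate 14 were higher in siACL than in siMock cells, where 3.7% of all genes were. At 5 mM 4 were higher and 1 was lower, where 8.8% and 4.91% of all genes were. At 5 mM 20 members fell in siACL cells and 16 in siMock cells (over all genes 22.6% and 25.2%). SLC7A11, the cystine transporter, led the list. It had -3.90, -3.73 and -3.62 in siACL cells at 5 mM and -0.43, -0.58 and -0.56 in untreated siACL cells, against -3.33, -3.44 and -3.13 in siMock cells at 5 mM and -1.47, -2.59 and -2.24 in untreated siMock cells. All 6 arrays at 5 mM were close to the bottom of the scale, where scores are least precise, and the untreated siMock arrays spread over more than 1 unit. The interaction was -2.03 ± 0.35 (limma adjusted p = 0.00129). CHAC1, which degrades glutathione, fell by 1.36 in siACL cells, and its change of 0.41 in siMock cells was not called (adjusted p = 0.301). Its interaction was -1.76 ± 0.44 (adjusted p = 0.016), and with the 0.5 mM arrays as baseline it was -1.41 (adjusted p = 0.0502). TRIB3, a pseudokinase that restrains ATF4, fell by 0.71 in siACL cells and fell by 0.41 in siMock cells, with an interaction of -0.30 ± 0.05 (adjusted p = 0.00089). ATF4 itself had -0.09 ± 0.025 (adjusted p = 0.0262). On the scale of percentile ranks 5 members of the list were negative in place of 9.

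Genes of growth arrest and death were divided. Of 16 CDK inhibitors and growth arrest genes 3 were positive and 4 negative (18.8% and 25%, against 5.5% and 3.35% of all genes). MXD1, a MYC antagonist, had -1.01 ± 0.095 (limma adjusted p = 2.6e-06): it rose by 0.24 in siACL cells and rose by 1.25 in siMock cells, and without butyrate it was 0.89 higher in siACL than in siMock cells. MXD1 was at -0.58 against the 0.5 mM arrays. CDKN2A, the gene of p16 and ARF, fell by 0.72 in siACL cells and fell by 1.66 in siMock cells, and CDKN3, a phosphatase of CDK1 and CDK2, rose by 0.30 in siACL cells and fell by 0.11 in siMock cells. Of 25 p53 targets 2 were positive and 4 negative (8% and 16%). PHLDA3, an inhibitor of AKT, had 0.84 ± 0.095 (adjusted p = 2.2e-05) and TP53I3, a quinone oxidoreductase, -0.38 ± 0.051 (adjusted p = 0.00012). Of 24 genes of the apoptosis machinery 2 were positive and 2 negative (8.33% each). The positive shares of the p53 and apoptosis lists lay near the 5.5% of all genes. BIK, a BH3-only protein, rose by 0.46 in siMock cells, and its change of 0.06 in siACL cells was not called (adjusted p = 0.106). Its interaction was -0.40 ± 0.04 (adjusted p = 7e-06). BID, another BH3-only protein, had 0.27 ± 0.057 (adjusted p = 0.00587) against untreated cells and -0.04 (adjusted p = 0.786) against the 0.5 mM arrays.

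Among signalling and surface genes the BMP and ID list was called on the positive side alone, and the other lists on both sides. Over all genes, too, positive calls (999) outnumbered negative ones (609). Of 14 BMP and ID genes 5 were positive (35.7%, against 5.5% of all genes) and none was negative. Without butyrate 6 had been lower in siACL than in siMock cells, where 2.61% of all genes were. LEFTY2, a Nodal antagonist, and CHRD, a BMP antagonist, had 1.19 ± 0.29 (limma adjusted p = 0.0154) and 0.83 ± 0.14 (adjusted p = 0.00128). SMAD7, the inhibitory SMAD, had 0.54, 0.49 and 0.47 in siACL cells at 5 mM and -0.64, -0.82 and -0.58 in untreated siACL cells, against 0.55, 0.54 and 0.52 in siMock cells at 5 mM and -0.14, -0.29 and -0.26 in untreated siMock cells. The arms overlapped at 5 mM and not without butyrate. Against the 0.5 mM arrays LEFTY2 was at 0.02 (adjusted p = 0.979), CHRD at 0.44 (adjusted p = 0.0597) and SMAD7 at 0.26 in place of 0.41. Of 16 Wnt targets and stem cell genes 4 were positive and 2 negative, together 37.5%, with CD44, the hyaluronan receptor, at 0.35 ± 0.042 and RNF43, the ligase that removes Frizzled receptors, at 0.34 ± 0.059. Of 15 MAPK feedback genes 3 were positive, ETV4 (0.32 ± 0.054), SPRY4 (0.22 ± 0.041) and PHLDA1 (0.21 ± 0.036), and 1 was negative. Together these were 26.7%, against 8.85% of all genes called. Of 20 immediate early genes 2 were positive and 2 negative (20% called): FOSB, an AP-1 subunit, had 0.45 ± 0.037 (adjusted p = 7.5e-07) and KLF2, a zinc finger factor, -0.33 ± 0.034 (adjusted p = 8.7e-06).

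Immune genes gave calls in both directions. Of 21 interferon-stimulated genes 4 were positive and 2 negative (19% and 9.52%, against 5.5% and 3.35% of all genes). OAS3, a sensor of double-stranded RNA, fell by 0.44 in siACL cells and fell by 1.20 in siMock cells, with an interaction of 0.76 ± 0.11 (limma adjusted p = 0.00024), and IFITM2, an antiviral membrane protein, had 0.29 ± 0.043 (adjusted p = 0.00037). IRF9, a subunit of the ISGF3 factor, had -0.25 ± 0.064 (adjusted p = 0.0201), and -0.01 (adjusted p = 0.967) against the 0.5 mM arrays, and its call was also lost without replicate 1 of the untreated siMock arrays. Of 14 genes of MHC class I and peptide loading 3 were positive (21.4%). Among them were HLA-F at 0.17 ± 0.039 and the proteasome activator PSME1 at 0.11 ± 0.03. The call for PSME1 was lost on leaving out any of 5 arrays and on the 12 arrays alone (limma adjusted p = 0.0789). HLA-F was at 0.30 and PSME1 at 0.23 against the 0.5 mM arrays. HLA genes are polymorphic and alike in sequence, so a probe may read more than 1 of them. None of the 8 class II genes was called, although 8 rose in siACL and 7 in siMock cells at 5 mM. Over all genes 8.85% were called, and 22.7% rose in siACL and 25.6% in siMock cells.

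Metallothioneins, small proteins that bind zinc and copper, rose in both arms: all 8 members of the list, which includes the zinc exporter SLC30A1, rose at 5 mM in siACL and in siMock cells. Over all genes 22.7% rose in siACL and 25.6% in siMock cells. Of the list 37.5% had a negative interaction and 12.5% a positive one, against 3.35% and 5.5% of all genes. The interaction was negative for MT2A (-0.46 ± 0.13, limma adjusted p = 0.0297), MT1X (-0.34 ± 0.04, adjusted p = 3.4e-05) and MT1G (-0.23 ± 0.04, adjusted p = 0.00114), and positive for SLC30A1 (0.12). MT2A had 3.12, 3.33 and 3.40 in siACL cells at 5 mM and 2.08, 2.06 and 2.10 in untreated siACL cells, against 3.73, 3.90 and 3.90 in siMock cells at 5 mM and 2.18, 2.16 and 2.20 in untreated siMock cells. It thus reached the top of the scale. On percentile ranks the direction turned, with 3 members positive and none negative, and MT2A was at 0.37 and MT1X at 1.76 percentile points. The call for MT2A was also lost on leaving out any of 8 arrays, MT2A was at -0.24 (adjusted p = 0.287) and MT1G at -0.00 (adjusted p = 0.971) against the 0.5 mM arrays, and metallothionein genes are near-identical copies.

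**Figure D3:**
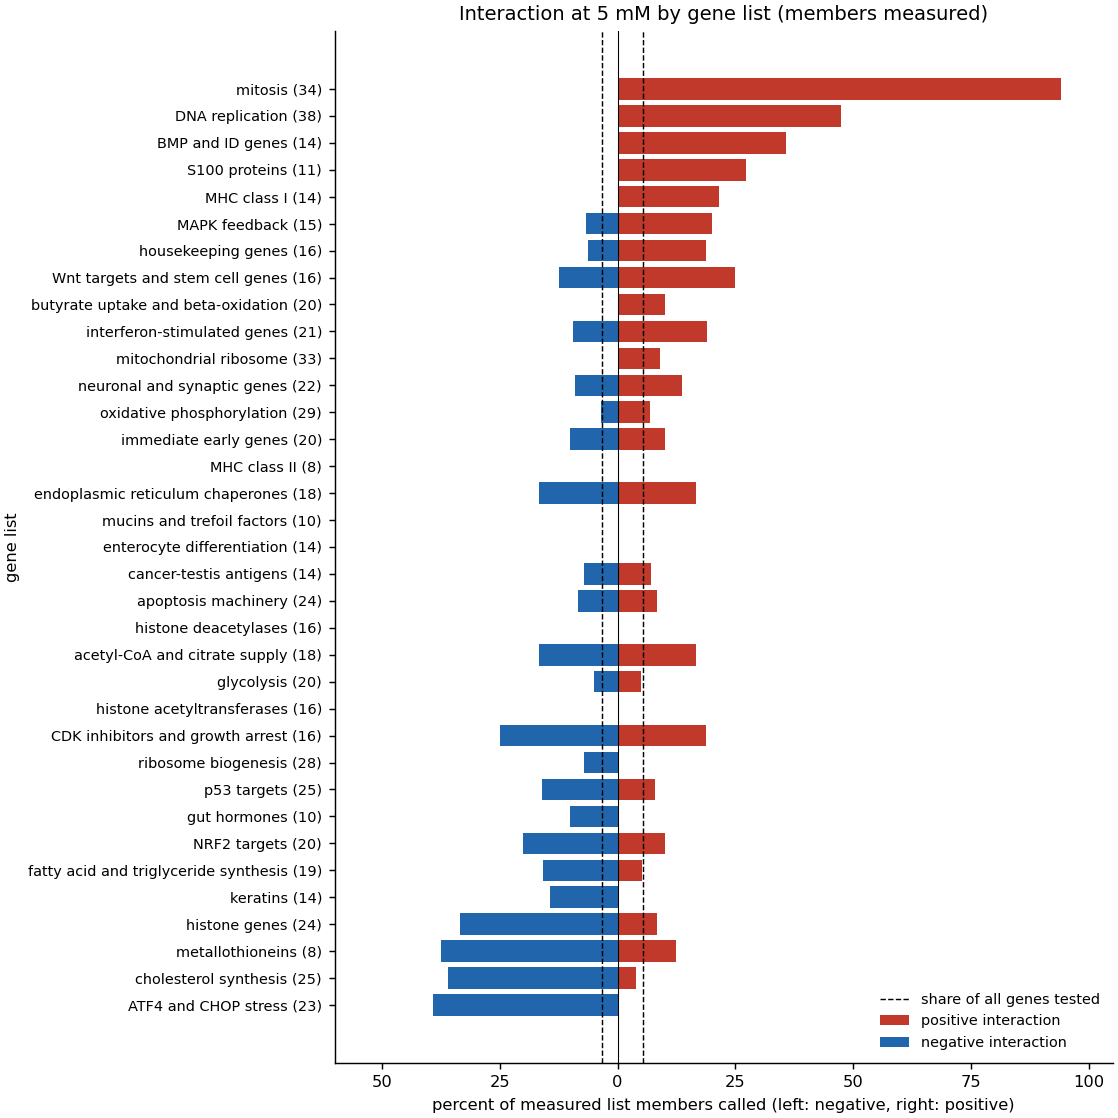
Percent of the measured members of each gene list (member number in brackets, vertical axis) that were called for the interaction at 5 mM. Bars to the right (red) are positive and bars to the left (blue) negative interactions, and the dashed lines mark the shares of all genes tested, 5.5% positive and 3.35% negative. The mitosis list reaches furthest right with 32 of 34 members, and the ATF4 and CHOP list furthest left with 9 of 23.

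The next 7 lists had called shares of 0% to 10.3%, against 8.85% of all genes. None of the 14 enterocyte differentiation genes and none of the 10 mucins and trefoil factors was called. Of 10 gut hormones 1 was called, of 28 ribosome biogenesis genes 2, of 33 mitochondrial ribosomal proteins 3, of 29 respiratory chain genes 3 and of 20 glycolysis genes 2. MRPL11, a protein of the large mitochondrial ribosomal subunit, had the largest of these values on the positive side among mitochondrial ribosomal proteins, at 0.22 ± 0.027 (limma adjusted p = 5e-05) and 0.10 against the 0.5 mM arrays, and SLC2A1, the glucose transporter, had 0.17 ± 0.032 (adjusted p = 0.00205). Other lists had larger shares. Of 18 endoplasmic reticulum chaperones 3 were positive and 3 negative (33.3% called), and of 20 NRF2 targets 2 were positive and 4 negative (30% called). ABCC2, an exporter of glutathione conjugates, fell by 0.94 in siACL cells and fell by 2.20 in siMock cells, with an interaction of 1.25 ± 0.22 (adjusted p = 0.00171). Of 22 neuronal and synaptic genes 3 were positive and 2 negative (22.7% called), and CNTNAP2, a neurexin-like protein, rose by 2.41 in siACL cells and rose by 3.52 in siMock cells (interaction -1.11 ± 0.17, adjusted p = 0.00048, and 0.18 with adjusted p = 0.597 against the 0.5 mM arrays). Of 11 S100 proteins 3 were positive (27.3%), with S100A4 at 0.24 ± 0.028 (adjusted p = 2.8e-05), and of 14 keratins 2 were negative (14.3%), KRT80 at -0.74 ± 0.095 (adjusted p = 7.1e-05) and KRT15 at -0.43 ± 0.065 (adjusted p = 0.00034). Among 16 housekeeping genes 4 were called (25%), including TUBB, a tubulin, at 0.22 ± 0.032 (0.09, adjusted p = 0.0697, against the 0.5 mM arrays) and HPRT1, a purine salvage enzyme, at 0.18 ± 0.037.

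The genes with the largest moderated t on the positive side beside the mitotic ones were ITGB5 and HAS3. ITGB5, the beta 5 integrin, had 0.75, 0.79 and 0.75 in siACL cells at 5 mM and 0.86, 0.91 and 0.88 in untreated siACL cells. In siMock cells it had 0.51, 0.53 and 0.54 at 5 mM and 1.07, 1.08 and 1.06 without butyrate. The order of the arms turned round between the doses, and the interaction was 0.43 ± 0.025 (limma adjusted p = 1.7e-08). HAS3, a hyaluronan synthase, fell by 0.50 in siACL cells and fell by 1.05 in siMock cells, with an interaction of 0.55 ± 0.037 (adjusted p = 7.8e-08).

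Most of the largest interactions belonged to genes of low rank, where a single array can move a score by a unit or more. ABHD14B, an alpha/beta hydrolase, kept its call whichever of the 12 arrays was left out. It had -0.24, -0.15 and -0.22 in siACL cells at 5 mM and 0.40, 0.42 and 0.42 in untreated siACL cells, against -1.97, -1.58 and -1.90 in siMock cells at 5 mM and 0.21, 0.24 and 0.33 in untreated siMock cells. The interaction was 1.46 ± 0.17 (limma adjusted p = 3.1e-05). EPSTI1, an interferon-inducible protein, had -0.15, -0.58 and -0.63 in siACL cells at 5 mM and -2.95, -2.51 and -2.53 in untreated siACL cells. In siMock cells it had -1.45, -2.11 and -2.03 at 5 mM and -2.52, -2.24 and -2.53 without butyrate. It rose by 2.21 in siACL cells and rose by 0.56 in siMock cells, so its interaction of 1.64 ± 0.28 (adjusted p = 0.00106) was a larger response in siACL cells. SNCG, gamma-synuclein, fell by 1.84 in siACL cells and fell by 3.25 in siMock cells, and ZBED2, a zinc finger factor, fell by 2.53 in siACL cells and fell by 4.03 in siMock cells. Their interactions, 1.40 ± 0.28 and 1.50 ± 0.39, turned sign on percentile ranks. Those of KRT18P44 (a keratin 18 pseudogene, 1.74 ± 0.48), MXRA8 (an adhesion molecule, 1.72 ± 0.51), NT5M (a mitochondrial nucleotidase, 1.44 ± 0.41) and PRTFDC1 (1.27 ± 0.37) were lost on leaving out any of 5 to 11 arrays, and that of ZBED2 on leaving out replicate 1 of either arm at 5 mM. Against the 0.5 mM arrays the calls for KRT18P44 (0.67, adjusted p = 0.467), MXRA8 (0.93, adjusted p = 0.305), PRTFDC1 (1.04, adjusted p = 0.0922) and ZBED2 (1.15, adjusted p = 0.0742) were lost.

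On the negative side CDH13 differed between the arms at 5 mM. This GPI-anchored cadherin had -2.48, -1.92 and -2.24 in siACL cells at 5 mM and -3.90, -3.36 and -3.49 in untreated siACL cells, against -0.02, 0.09 and 0.01 in siMock cells at 5 mM and -3.27, -3.25 and -3.40 in untreated siMock cells. It rose in both arms, by 1.37 in siACL and 3.33 in siMock cells, and the interaction was -1.96 ± 0.22 (limma adjusted p = 2.2e-05). SLC8A2, a sodium-calcium exchanger, differed between the arms without butyrate and not at 5 mM. It had 0.50, 0.45 and 0.49 in siACL cells at 5 mM and -0.63, -0.68 and -0.79 in untreated siACL cells, against 0.55, 0.50 and 0.57 in siMock cells at 5 mM and -1.83, -2.09 and -2.11 in untreated siMock cells. Its interaction was -1.37 ± 0.077 (adjusted p = 1.7e-08) against untreated cells and -0.00 (adjusted p = 0.989) against the 0.5 mM arrays.

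ZNF264, a KRAB zinc finger gene, had the largest value of all, -3.93 ± 0.24 (limma adjusted p = 3.1e-08). It stood at 0.17, 0.22 and 0.20 in siACL cells at 5 mM and 0.11, 0.21 and 0.07 in untreated siACL cells, against 0.73, 0.11 and 0.07 in siMock cells at 5 mM and -3.55, -3.62 and -3.90 in untreated siMock cells. The 3 untreated siMock arrays alone were at the bottom of the scale, and with the 0.5 mM arrays in their place the value was -0.50 (adjusted p = 0.232). LRRC26, a potassium channel subunit, had 0.70, 0.81 and 0.75 in siACL cells at 5 mM and 0.55, 0.57 and 0.53 in untreated siACL cells, against 0.64, 0.72 and 0.72 in siMock cells at 5 mM and -3.73, 0.10 and -3.62 in untreated siMock cells. Its interaction of -2.91 ± 0.87 (adjusted p = 0.0451) rested on untreated siMock arrays, of which replicate 2 was unlike the others, and it was lost on leaving out any of 11 arrays and against the 0.5 mM arrays (-0.34, adjusted p = 0.878). TSPYL4 (-2.19 ± 0.55), TMEM178 (-1.86 ± 0.36) and EMR4P, a pseudogene of the adhesion receptor family (-2.50 ± 0.52), made up the rest of the largest negative values. Against the 0.5 mM arrays TSPYL4 was at -0.88 (adjusted p = 0.387) and EMR4P at -1.39 (adjusted p = 0.112), and the call for TSPYL4 was also lost without replicate 1 of the untreated siACL arrays.

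**Figure D4:**
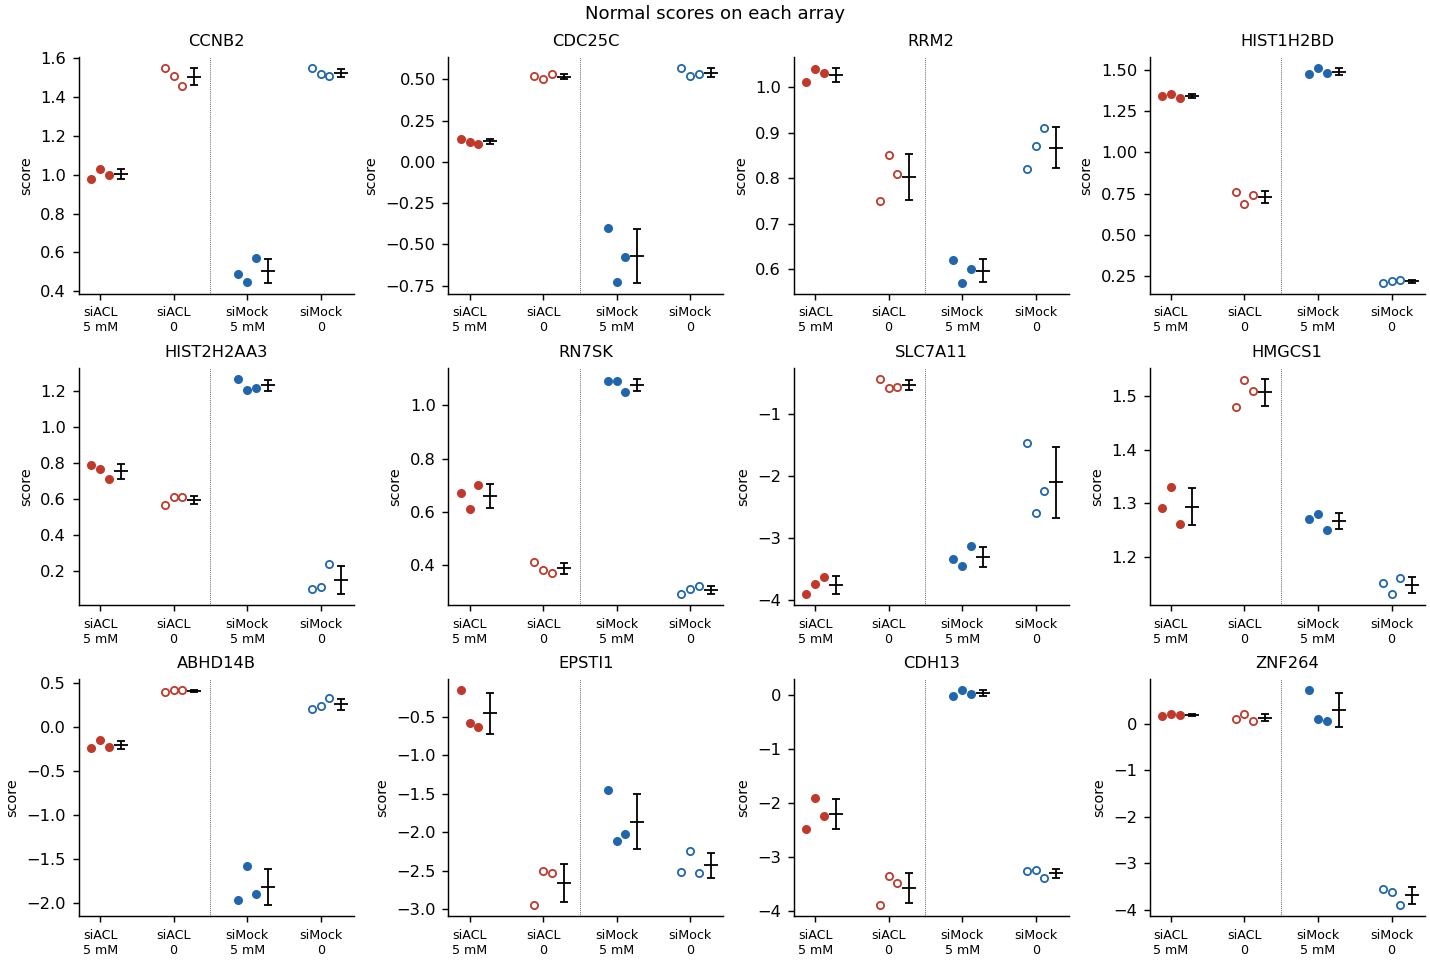
Normal scores of 12 genes on single arrays (vertical axes, each with its own range). From left to right in each panel are siACL at 5 mM (filled red), siACL untreated (open red), siMock at 5 mM (filled blue) and siMock untreated (open blue), with 3 arrays each, and the black mark beside each group is the mean ± SD. CCNB2 and CDC25C fall less in siACL than in siMock cells, HIST1H2BD rises less, RRM2 goes opposite ways, and ZNF264 is low on the 3 untreated siMock arrays alone.

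In 63 genes butyrate changed both arms in opposite directions. Beside RRM2, the largest positive values among those named by symbol were RNF175, a RING finger protein, at 1.00 ± 0.24 (limma adjusted p = 0.013) and ZNF467 at 0.44 ± 0.075 (adjusted p = 0.00121). The largest negative ones were EMR4P, CCR8, a chemokine receptor, at -1.63 ± 0.42 (adjusted p = 0.0208), and SLPI, a secreted protease inhibitor, at -1.51 ± 0.3 (adjusted p = 0.00356). SLPI had -2.27, -1.72 and -2.30 in siACL cells at 5 mM and -1.12, -1.36 and -1.64 in untreated siACL cells, against -2.44, -1.81 and -1.66 in siMock cells at 5 mM and -2.90, -2.48 and -2.88 in untreated siMock cells. The arms overlapped at 5 mM and were apart without butyrate. The call for CCR8 was lost on leaving out any of 3 arrays, that for RNF175 on the 12 arrays alone (adjusted p = 0.0589) and that for SLPI on percentile ranks (adjusted p = 0.0904). Against the 0.5 mM arrays RNF175 was at 0.54 (limma adjusted p = 0.192) and ZNF467 at 0.21 (adjusted p = 0.0936).

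The interactions at lower doses share the untreated arrays with the one at 5 mM, so their values are set side by side only. At 0.5 mM 564 genes (3.1%) were called and at 2 mM 1124 (6.19%). At 0.5 mM 1.39% of all genes were positive and 1.72% negative, and at 2 mM 3.46% were positive and 2.73% negative. Of the mitosis list 0 members were positive and 1 negative at 0.5 mM, 4 positive and 0 negative at 2 mM, and 32 positive and 0 negative at 5 mM. Of the DNA replication list 8 were positive and 1 negative at 0.5 mM, and 1 positive and 2 negative at 2 mM. The step from 2 to 5 mM uses no untreated array. Its interaction was called for 1182 genes (6.5%), 683 positive (3.76%) and 499 negative (2.75%). It was positive for 29 mitosis and 22 DNA replication members and negative for none of either list, and it was negative for 15 of 25 cholesterol synthesis genes and positive for none. At 2 mM 6 cholesterol genes had a positive interaction and none a negative one. Of the 999 genes positive at 5 mM the step was positive for 370 and negative for 22, and of the 609 negative genes it was negative for 153 and positive for 4. Histone genes had 9 negative interactions and 0 positive at 2 mM, and 4 negative and 3 positive in the step.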

How the data were processed

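Per the labels' protocols, RNA came from flash-frozen cells by Trizol, and an Ambion MessageAmp kit gave the biotin-labelled cRNA that was put on Illumina arrays. The deposited values are scores whose making is not given in the sources used here. Every array's values match normal quantiles of its ranks to within 0.000915, so each score is a rank on a normal scale, and differences near either end are stretched. The 48 columns of the authors' scanner table are tied to no sample by name and were not used, and only its gene annotation was. Of 20747 entries 20729 were found in it. Current names come from RefSeq, which 12258 genes matched by accession, 970 by symbol and 519 by synonym, and 4425 did not match.

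The fit was limma 3.58.1 in R 4.3.3 on the scores as deposited, with 1 mean for each of 8 groups over all 24 arrays, no block, no filter, 16 residual degrees of freedom and Benjamini-Hochberg adjustment over 18172 genes. The script was tested on simulated data. The replicate numbers do not pair the arrays: same-numbered deviations correlated at -0.0257 to 0.0251. P-values measure the spread between these arrays, whose number limits the precision.

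The comparison, its gene lists and the motifs were chosen with earlier results of these data known. From the called genes, leaving out provisional symbols (LOC, FLJ, MGC, KIAA, DKFZ, open reading frame and FAM names), the naming rule took ACLY always, the 8 largest differences each way, the 6 largest moderated t each way not already named, the 3 largest each way with both arms called and of opposite sign, and, from each list, up to 3 called members with the largest interaction. Some named genes are not reported here. Alternatives are given at the end.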

Additional observations from a re-analysis of the deposited data

Results flagged for a closer look

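The interaction itself differed between 2 and 5 mM butyrate for 1182 genes, by limma's test of the step from 2 to 5 mM (siACL minus siMock), which uses no untreated array. Among the genes named for their size, their test or their opposite arms, the step was positive for the following genes. It was 1.30 for PRTFDC1, 0.98 for EPSTI1, 0.96 for ABHD14B, 0.70 for RRM2, 0.45 for PBK, 0.42 for CCNB2, 0.35 for UBE2C, 0.26 for RACGAP1 and 0.15 for ITGB5. It was negative for CDH13 (-2.18), ZBED2 (-1.79), SLPI (-1.25), HIST2H2AC (-0.32), RN7SK (-0.30), HIST2H2AA3 (-0.25), ACLY (-0.21), SNORD3C (-0.21) and HIST1H2BD (-0.18). ZBED2 went against its own interaction at 5 mM, which was 1.50. For the others the step had the sign of the interaction at 5 mM.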

How the results depend on the processing

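For the interaction at 5 mM, with 1608 calls, a fit on its 12 arrays gave 1024 (638 positive, 386 negative), of which 927 were among the 1608, and an adjusted p under 0.01 left 800. Array weights gave 1680, a robust variance prior with a trend 1858, the replicate block 1555, percentile ranks 1719 and all entries 1461, and leaving out 1 array gave 1295 to 1441, with 1002 genes called in every such fit. On the groups' own arrays alone, counts were 27 for siACL against siMock untreated, 413 at 5 mM, 503 for the interaction at 2 mM, 235 at 0.5 mM and 520 for the step from 2 to 5 mM. At 0.01 they were 471, 1253, 463, 183 and 518 in the same order. Genes with a mean score above 0 gave 876 for the interaction at 0.5 mM. Leaving out 1 array gave 7447 to 7608 for siACL at 5 mM, 8673 to 8736 for siMock at 5 mM, 690 to 972 for siACL against siMock untreated, 1753 to 2120 at 5 mM, 788 to 1007 for the interaction at 2 mM, 354 to 503 at 0.5 mM and 886 to 1064 for the step. Percentile ranks reversed ZBED2 (-1.58), SNCG (-1.63), MT2A (0.37), MT1X (1.76) and VGF (4.04 percentile points). The 0.5 mM baseline reversed BID (-0.04), ALDOC (0.07), VGF (0.06), CNTNAP2 (0.18) and S100A11 (-0.05). The cause was not tested. Of 110 named genes, 83 kept their call on the 12 arrays and 86 whichever array was left out, and none of those fits reversed one. The scanner table's alternatives (background correction, normalization, dim probes, slide) were not run, since its columns could not be tied to samples, and signal over background limits low ranks by an unknown amount.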

Other observations

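Genes of small non-coding RNAs, picked by name after the values were seen, gave calls mainly on the negative side, and mainly outside the small nucleolar RNAs. Of 195 such genes (small nucleolar, small Cajal body, U and Y RNAs, 7SK, 7SL and 5S RNAs and the RNA subunits of ribonucleases), 27 had a negative interaction at 5 mM and 4 a positive one, where 3.35% of all genes were negative and 5.5% positive. Of the 148 small nucleolar RNAs 6 were negative (4.05%), 3 of them copies of U3, and 3 positive (2.03%). Of the other 47 genes 21 were negative (44.7%) and 1 positive (2.13%), with a median of -0.29. Over all 195 genes the median interaction was -0.04, the median change at 5 mM was -0.17 in siACL and -0.14 in siMock cells, and 110 of 195 values were below 0. Many of these genes are near-identical copies or lie inside introns of other genes, so that they are not independent of each other or of their hosts.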
